A study of Mus musculus with 38 samples.

Results

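Genes of ribosome biogenesis and RNA polymerase I were followed through kidney cells, kidney tumours and normal kidney of the mouse. A list of 56 gene symbols defined the set, and 55 of them were found among the 21705 genes of the table. Noc2l had no entry and was skipped. By role, 6 members belong to the RNA polymerase I machinery, 3 to the box C/D and 4 to the box H/ACA small nucleolar ribonucleoproteins, and 3 are abundant nucleolar phosphoproteins. Another 20 act in the small subunit processome or in 40S maturation, 17 in 60S maturation, and 2 are other nucleolar proteins. The 55 genes lie on 19 chromosomes, so they are not 1 locus followed many times over.

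Eukaryotic ribosomes are assembled in the nucleolus, where RNA polymerase I transcribes a single precursor of the 18S, 5.8S and 28S rRNAs. The precursor is modified under the guidance of small nucleolar RNAs, cleaved and folded, and leaves the nucleolus as pre-40S and pre-60S particles that mature further in the nucleoplasm and cytoplasm. Growing and dividing cells spend much of their resources on this pathway, and MYC, a transcription factor that binds DNA together with MAX, is a textbook activator of its genes.

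The 38 libraries of polyadenylated RNA fell into 10 groups. All engineered mice carried a doxycycline-inducible Myc transgene, driven by rtTA under the promoter of kidney cadherin, a protein of the renal tubule. MYC mice (MYC+) had this transgene with Vhl, the tumour suppressor lost in clear cell kidney cancer, left in place. VM mice (Vhl-/-; MYC +) had lost Vhl as well, by a tamoxifen-inducible Cre under the same promoter, and VIM mice (Vhl-/-; MYC +; Ink-/-/Arf-/-) had also lost Ink4a and Arf, the 2 products of Cdkn2a, in the germline. Each genotype gave 3 tumour libraries, all from animals kept on doxycycline (Dox), and 2 of the MYC libraries came from 1 mouse. One cell line of each genotype, MYC-2983, VM-3055 or VIM-3039, was grown from 1 tumour. It was collected 24 h after plating with 2 µg/ml Dox or without it, with 4 libraries of each kind. The 5 normal kidneys were wild type and had received vehicle. Their titles carry the label B6 (replicates 1 and 3) or KT (replicates 2, 4 and 5), which no source used here explains. Line and genotype therefore cannot be told apart in the cells. The S numbers that end the titles run on from VM-3055 to VIM-3039, while those of MYC-2983 start again. The J numbers in the same titles run on from VIM-3039 to MYC-2983, with a gap after VM-3055. The titles do not say what either series stands for. A difference between lines thus cannot be told apart from one between possible sets of libraries, least of all for MYC-2983 against the others. Tumour, genotype and Dox cannot be told apart in the comparison of tumours with kidney. No cells without the transgene received Dox, so an effect of the drug itself cannot be told apart from that of the transgene. No source used here says whether the 4 libraries of a group came from separate cultures, so their p-values measure only the spread between these libraries, which may be technical.

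Values are given in units in which the upper quartile of each library is 1000, so that a level is relative to the rest of the library and says nothing of RNA per cell. In bulk samples fewer cells of a type and less RNA per cell cannot be told apart. Estimated reads were 12.4 to 36.6 M per cell library and 8.22 to 15.5 M per tissue library. By line these reads were 23.1 to 28.6 M in MYC-2983, 14.4 to 36.6 M in VM-3055 and 12.4 to 19.9 M in VIM-3039. No member lay at or under the worth of 3 reads in any library. The lowest member value of all was 22.8 units, for Nle1 in kidney replicate 4. The Myc gene averaged 676 units with and 1831 units without Dox in MYC-2983, 384 and 1364 in VM-3055 and 381 and 1479 in VIM-3039, and was thus lower in the libraries labelled as kept on Dox in all 3 lines. The species of the transgene was not given in the sources used here and its reads cannot be separated from those of the native gene, so that Myc did not check the treatment labels, and each direction given for Dox rests on them. Vhl was at 451 and 533 units in MYC-2983, with and without Dox, against 12.7 to 31 in the other lines, and it averaged 53.6 in VM and 252 in VIM tumours, against 499 in MYC tumours and 686 in kidney. Cdkn2a averaged at most 34.1 units in the groups of VIM-3039, against 3171 to 5162 in those of the other lines. In the tumours it averaged 4013 units in VM and 53.1 in VIM, and in the MYC tumours it was 108, 2872 and 59.3, the last 2 being libraries of the same mouse. Kidney replicate 5 correlated with the other kidneys at 0.909 to 0.95 across genes, where the others reached 0.988. Each of the 4 markers of renal epithelium was above the worth of 3 reads in some library of every group. The exception was Pax2, which was at or under it in all VM tumours. The endothelial markers of the cell lines summed to at most 12.5 units per library.

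Across the 10 groups the 55 genes together took between 0.155% and 1.67% of the signal of a library. In normal kidney the share was 0.155, 0.158, 0.164, 0.167 and 0.181%, with a mean of 0.165 ± 0.0103% (SD, n = 5). Tumours held 0.848, 1.12 and 0.984% in the MYC group, 0.738, 0.934 and 0.944% in VM and 0.963, 1.19 and 0.799% in VIM, all above every kidney. Without Dox the cells held 0.771 ± 0.012% (SD, n = 4) in MYC-2983, 0.514 ± 0.0145% in VM-3055 and 0.482 ± 0.00175% in VIM-3039. With Dox these shares were 1.64 ± 0.0216%, 1.57 ± 0.0179% and 1.65 ± 0.0188% (SD, n = 4 each), and no library with Dox overlapped with one without. The ratio of the means with and without the drug was 2.13 for MYC-2983, 3.06 for VM-3055 and 3.41 for VIM-3039. The 3 lines thus sat close together with Dox. When the drug was withdrawn, MYC-2983 was the highest of the 3, and the shares of VM-3055 and VIM-3039 lay nearer to each other.

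**Figure D1:**
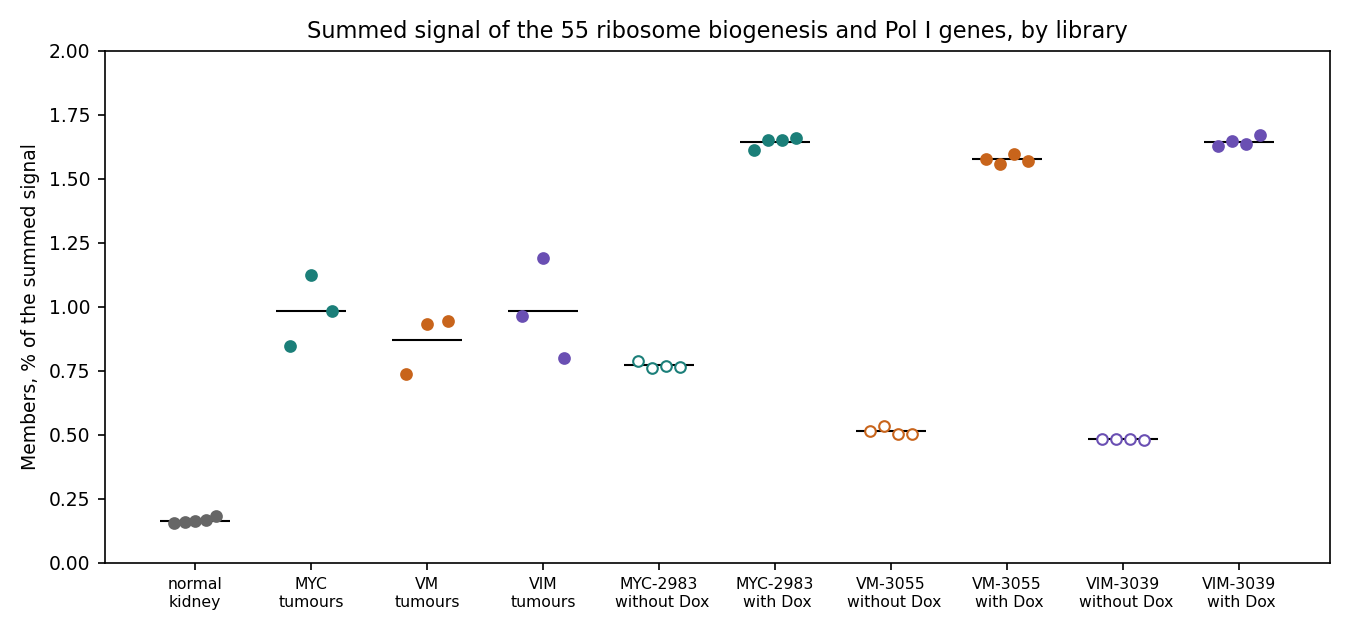
Share of the library signal taken by the 55 ribosome biogenesis and RNA polymerase I genes (y axis, percent) in each library (points), by group (x axis), with open points for cells without Dox and a line at each group mean. All cell libraries with Dox lie at 1.56% or more, the tumours lie between 0.738% and 1.19%, and the 5 kidneys lie at 0.181% or less.

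Single genes shared the low level in kidney in most cases, and the rest of the order less often. Normal kidney had the lowest group mean of the 10 for 48 of the 55 members, the exceptions being Polr1c and Nhp2 (lowest in VIM-3039 without Dox), Nop10, Rcl1, Imp3 and Nop16 (lowest in VM-3055 without Dox) and Utp20 (lowest in VM tumours). The highest mean was that of MYC-2983 with Dox for 21 members, of VIM-3039 with Dox for 19, of VIM tumours for 13 and of VM-3055 with Dox for 2, Wdr43 and Noc4l. For 37 members the mean of every line with Dox was above the mean of every tumour group, and for 25 every tumour mean was above that of every line without Dox. These ranks are descriptions of group means, which in part lie within each other's spread. The share of all genes with the same ranks was not counted, so how far the members depart from it is not known. The 13 genes highest in VIM tumours included the RNA polymerase I and III subunit gene Polr1c, the H/ACA protein genes Nhp2 and Nop10, Npm1, and the 60S factor genes Gnl3, Ppan and Nle1.

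**Figure D2:**
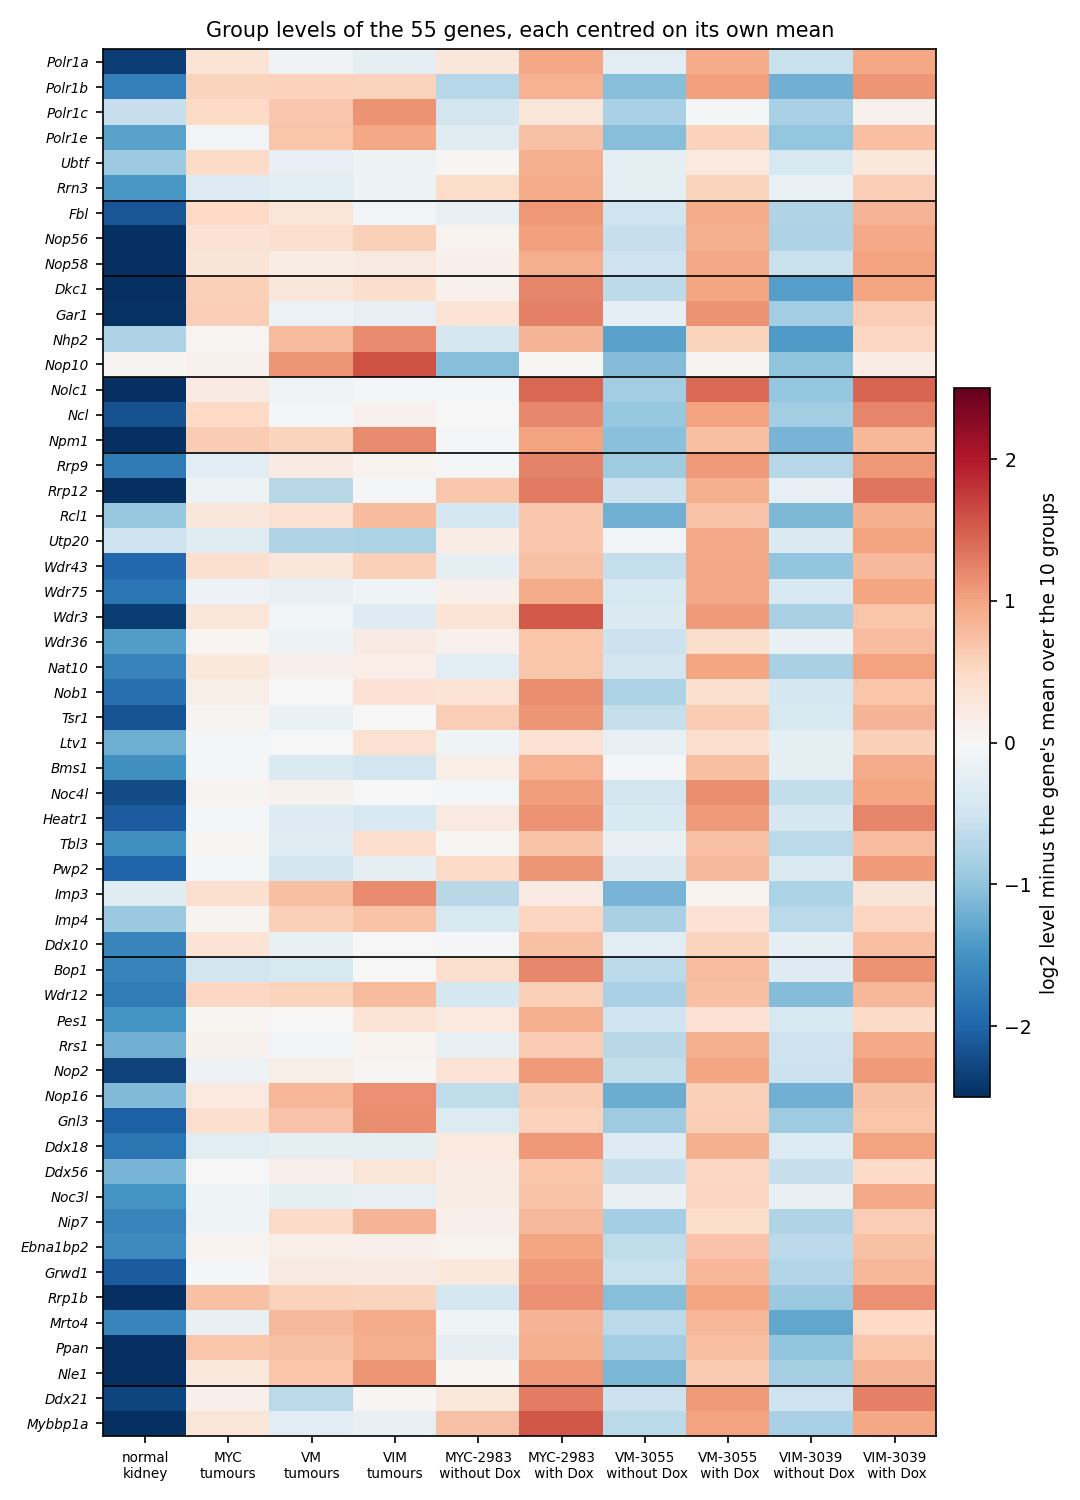
Mean log2(value + 1) of each of the 55 members (y axis, by role) in the 10 groups (x axis), after subtraction of the gene's own mean over the groups, on a colour scale from -2.5 to 2.5 at which more extreme values are capped. The kidney column is lowest for 48 members, and the 3 columns of cells with Dox and the tumour columns are above it for nearly every gene.

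The first comparison asked how these genes differed between cells kept on Dox and cells withdrawn from it. All 55 members were higher with Dox in all 3 lines at an adjusted p under 0.05, and for all 55 the 4 libraries with Dox lay above the 4 without (limma on log2(value + 1), Benjamini-Hochberg adjustment over all genes tested, two-sided). Of all genes tested, 31.5%, 26.1% and 31.1% were higher at that threshold in MYC-2983, VM-3055 and VIM-3039, and 29.5%, 23.8% and 28.9% were higher with groups that did not overlap. To pass, a gene also needed a log2 change above 1 in size. By this rule 19 members passed in MYC-2983, 45 in VM-3055 and 48 in VIM-3039, all higher with Dox, against 4.49%, 5.92% and 7.67% of all genes tested in that direction. No member passed as lower (15%, 18.9% and 16.6% of all genes). The median log2 change of the members was 0.89, 1.44 and 1.53, or 1.85-fold, 2.71-fold and 2.89-fold, while the median over all genes tested was -0.13, -0.26 and -0.15. All 55 were also higher in each line when the libraries were rescaled by a trimmed mean (TMM) or by quantiles.

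The 19 members that passed in all 3 lines came from all 7 roles. They were the polymerase genes Polr1b and Polr1e, the methyltransferase gene Fbl, the H/ACA genes Dkc1, Nhp2 and Nop10, the phosphoprotein genes Nolc1, Ncl and Npm1, the small subunit genes Rrp9, Rcl1, Wdr3 and Noc4l, the large subunit genes Wdr12, Nop16, Rrp1b, Ppan and Nle1, and the RNA helicase gene Ddx21. Another 26 passed in VM-3055 and VIM-3039 and not in MYC-2983. Bms1, Tbl3 and Noc3l passed in VIM-3039 alone of the 3 lines, and 7 genes passed in none: Polr1c, Ubtf, Rrn3, Wdr36, Ltv1, Ddx10 and Pes1. These sets depended on the scaling. Under TMM, Nop56, Gar1, Wdr43, Nat10, Imp4, Gnl3 and Mrto4 also passed in MYC-2983, Rrn3, Wdr36, Bms1, Tbl3, Ddx10 and Pes1 in VM-3055, and Polr1c, Wdr36 and Ddx10 in VIM-3039, so that Ubtf and Ltv1 were the 2 that passed in no line. Under quantile scaling the gains were Nop56, Wdr43, Nat10, Mrto4 and Mybbp1a in MYC-2983. Passing in one line and not in another is no test of a difference, which is taken up further on.

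**Figure D3:**
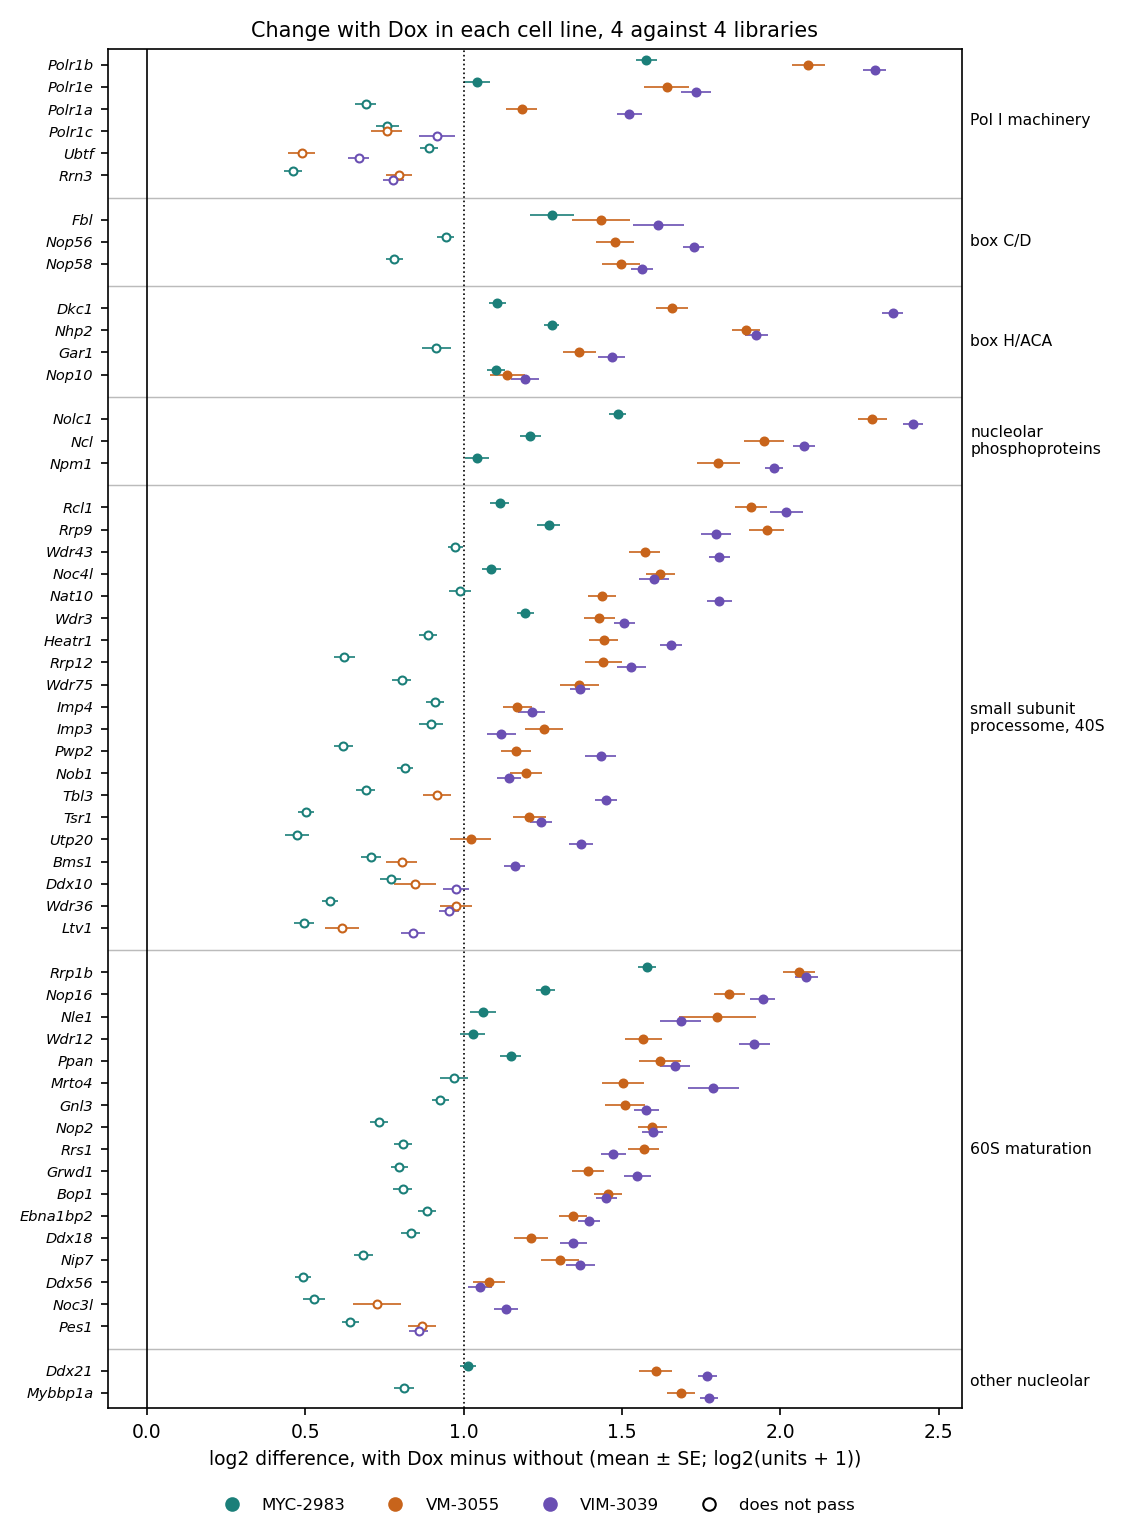
Log2 change with Dox (x axis, with the standard error) of each of the 55 members (y axis, by role) in the cells of each line. Filled points passed and open points did not, the dotted line marks a log2 change of 1, and all points lie to the right of 0.

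Polr1b encodes the second largest subunit of RNA polymerase I and lies at chr2:128926731-128952330 of the mm9 (NCBIM37) assembly. Its level was 837, 747, 773 and 789 units without Dox and 2384, 2281, 2417 and 2309 with Dox in MYC-2983. In VM-3055 it was 635, 642, 625 and 548 without and 2597, 2587, 2672 and 2559.6 with Dox, and in VIM-3039 it was 578, 528, 567 and 567 without and 2811, 2772, 2731 and 2712 with Dox. The groups did not overlap in any line, and the log2 changes of 1.58 (SE 0.034, adjusted p = 2.29e-17), 2.09 (SE 0.0516, adjusted p = 6.55e-16) and 2.30 (SE 0.0367, adjusted p = 1.3e-21) were the largest of the 6 polymerase I genes in each line. Polr1a, which encodes the largest subunit, changed less, by 0.69 in MYC-2983, 1.18 in VM-3055 and 1.52 in VIM-3039.

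Averaged over the 3 lines, the changes of the initiation factor genes Ubtf and Rrn3 ranked 53 and 54 of the 55 members, counted from the largest. Ubtf encodes UBF, which binds along the rRNA genes and opens their chromatin for transcription, and lies at chr11:102165874-102181056. Its level was 2770.3, 2833, 2781 and 2870.0 units without and 5039, 5169, 5507 and 5172 with Dox in MYC-2983. It was 2246, 2331, 2348 and 2387 without and 3335, 3407, 3201 and 3131 with Dox in VM-3055, and 2056, 2033, 2047 and 2218 without and 3316, 3348, 3253 and 3366 with Dox in VIM-3039. The groups were apart in each line, but the log2 changes were 0.89, 0.49 and 0.67, short of the size needed to pass, and Ubtf was the one member with its largest change in MYC-2983. Rrn3, whose product TIF-IA recruits the polymerase to the promoter, changed by 0.46, 0.80 and 0.78, the smallest change of all 55 in MYC-2983. Polr1b thus rose about 3-fold or more in each line, while both initiation factor genes were less than 2-fold higher in the deposited values. Under TMM scaling the change of Rrn3 in VM-3055 was 1.001 and just passed.

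Box C/D particles place 2'-O-methyl groups on rRNA and box H/ACA particles convert uridines to pseudouridine. All 7 of their protein genes passed in VM-3055 and VIM-3039, and 4 of 7 passed in MYC-2983. Nop56 and Nop58, which encode the paired core proteins of the box C/D particle, changed by 0.94 and 0.78 on the log2 scale in MYC-2983, 1.48 and 1.50 in VM-3055 and 1.73 and 1.56 in VIM-3039. Each of these 2 genes holds 4 annotated snoRNA genes within its span, which a library of polyadenylated RNA is not made to measure.

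Dkc1 encodes dyskerin, the pseudouridine synthase of the H/ACA particle and a component of telomerase, and lies at chrX:72341193-72355116. Without Dox its level was 2076, 2017, 2116 and 2112 units in MYC-2983, 1220.5, 1335, 1149 and 1177 in VM-3055 and 753, 765, 743 and 715 in VIM-3039, and the 3 sets did not overlap. With Dox the levels were 4319, 4588, 4533 and 4477 in MYC-2983, 3695, 3718, 3960.1 and 4018 in VM-3055 and 3684, 3911, 3854 and 3782 in VIM-3039, with VM-3055 and VIM-3039 overlapping each other. The log2 changes were 1.11, 1.66 and 2.35. Its position overlaps Mpp1 on the other strand, and whether the counting used strand was not given in the sources used here. Of the genes of the small H/ACA proteins, Nhp2 changed by 1.28, 1.89 and 1.92 and Nop10 by 1.10, 1.14 and 1.19. Nop10 was the member whose changes lay nearest to each other across the lines among the 4 H/ACA genes, with levels of 821, 779, 818 and 799 units without and 1697, 1778, 1715 and 1714 with Dox in MYC-2983 and of 878, 822, 859 and 786 without and 2079, 1862, 1894 and 1817 with Dox in VIM-3039.

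The 3 genes of nucleolar phosphoproteins had, as a group, the largest median change in each line, 1.21, 1.95 and 2.08 on the log2 scale in MYC-2983, VM-3055 and VIM-3039. Nolc1 encodes Nopp140, a chaperone of both kinds of nucleolar ribonucleoprotein, and lies at chr19:46150353-46160018. Its libraries held 2879, 2808, 2783 and 2812 units without and 7626, 7849, 7931 and 8236 with Dox in MYC-2983. They held 1564, 1682, 1538 and 1603 without and 8302, 7617, 7868 and 7471 with Dox in VM-3055, and 1547, 1492, 1431 and 1532 without and 8105, 7917, 7947 and 8112 with Dox in VIM-3039. The lines with Dox overlapped in level, and the difference between them lay in the level without Dox, which was lower in VM-3055 and VIM-3039 than in any MYC-2983 library. Its log2 change of 2.42 (SE 0.0313, adjusted p = 1.04e-22) in VIM-3039 was the largest of any member in any line.

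Ncl encodes nucleolin, which binds the rRNA precursor, and its log2 changes were 1.21, 1.95 and 2.08. Npm1, which encodes the nucleolar chaperone nucleophosmin, changed by 1.04, 1.80 and 1.98. Npm1 has processed copies elsewhere in the genome, and its level is uncertain to the extent that shared reads were assigned between them.

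Of the 20 genes of the processome, the large particle that folds and cuts the 5' part of the precursor, and of 40S maturation, 4 passed in MYC-2983, 15 in VM-3055 and 17 in VIM-3039, with medians of 0.81, 1.23 and 1.40. Wdr43, a processome subunit gene, changed by 0.97, 1.57 and 1.81, and Wdr3, another, by 1.20, 1.43 and 1.51. Utp20 encodes a large scaffold protein of the processome. Its libraries held 1826, 2119, 1602 and 1719.7 units without and 3679, 3769, 3688 and 3554 with Dox in VM-3055, which did not overlap. The log2 change of 1.02 was barely past the size needed to pass and fell to 0.96 without VM-3055 no-Dox replicate 3 and to 0.999 without no-Dox replicate 4, both short of it. In MYC-2983 Utp20 changed by 0.47 and in VIM-3039 by 1.37. Imp3, whose product pairs the U3 snoRNA with the precursor, changed by 0.90, 1.25 and 1.12. Ltv1, which helps the pre-40S particle leave the nucleus, had the smallest change of the 20 in VM-3055 and VIM-3039, with 0.62 and 0.84, and Bms1, the processome GTPase gene, changed by 0.71, 0.81 and 1.16.

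Of the 17 genes of 60S maturation, 5 passed in MYC-2983, 15 in VM-3055 and 16 in VIM-3039, with medians of 0.83, 1.50 and 1.55. Rrp1b encodes a nucleolar protein that binds 60S precursors and lies at chr17:32173045-32199810. It held 713, 684, 732 and 708 units without and 2110.4, 2079, 2163 and 2127 with Dox in MYC-2983, 454, 491, 426 and 462 without and 2014, 1861, 1903 and 1868 with Dox in VM-3055, and 503, 509, 495 and 504 without and 2145, 2086, 2091 and 2203 with Dox in VIM-3039. The groups were far apart in each line, with log2 changes of 1.58, 2.06 and 2.08, and the change in MYC-2983 was the largest of any member there. Ppan and Nle1, both of which encode factors of the pre-60S particle, changed by 1.15, 1.62 and 1.67 (Ppan) and by 1.06, 1.80 and 1.69 (Nle1). Gnl3 encodes nucleostemin, a nucleolar GTPase, and changed by 0.93, 1.51 and 1.58. Pes1 encodes a subunit of the PeBoW complex, which is needed for cleavage of the 60S part of the precursor. It had one of the smaller changes, 0.64, 0.87 and 0.86, and passed in no line as deposited, while under TMM scaling its change in VM-3055 was 1.07 and passed. The helicase gene Ddx56 changed by 0.49, 1.08 and 1.05, and Noc3l, a gene of an early pre-60S protein, by 0.53, 0.73 and 1.13.

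The 2 remaining nucleolar genes are Ddx21, a helicase gene of rRNA transcription and processing, and Mybbp1a, which encodes an abundant nucleolar protein bound by MYB. Ddx21 held 4892, 4823, 4752 and 4866 units without and 9631, 9593, 9666 and 10178 with Dox in MYC-2983. The log2 change there, 1.01, was 0.99 without Dox replicate 4, the highest library, and then no longer passed. The change was 1.61 and 1.77 in the lines VM-3055 and VIM-3039. Mybbp1a showed the widest gap between the lines without Dox, with 9874, 9360.1, 9963 and 10016 units in MYC-2983, 3623, 3859, 3593 and 3614 in VM-3055 and 3393, 3299, 3339 and 3409 in VIM-3039. Its changes with Dox were 0.81, 1.69 and 1.78.

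**Figure D4:**
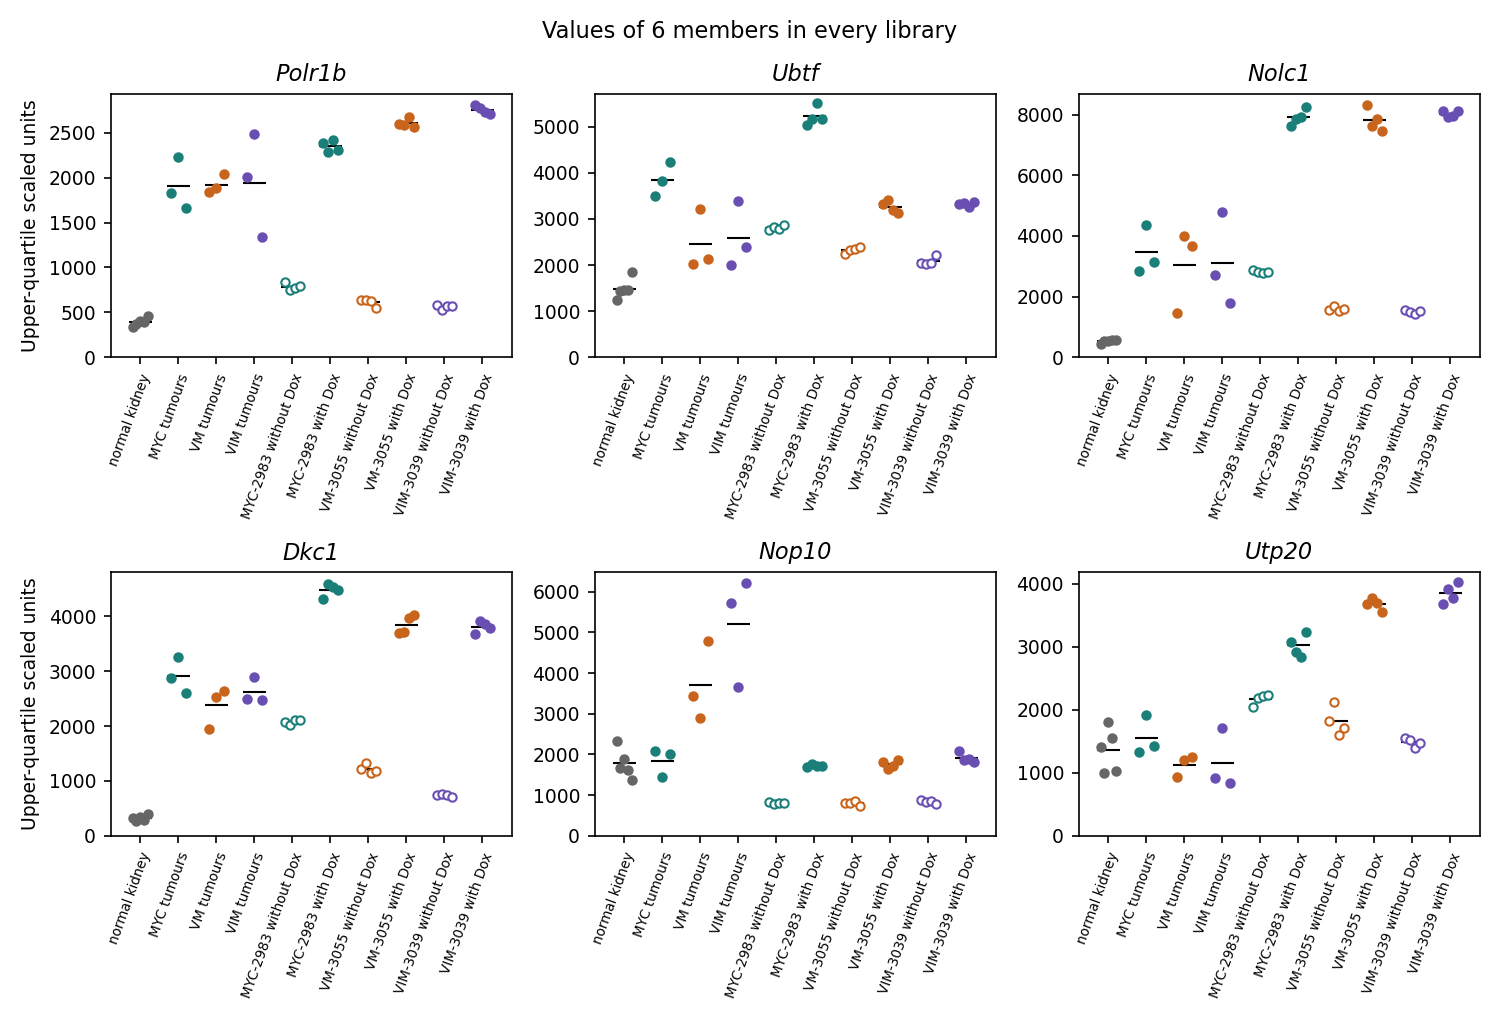
Values (y axis, units, linear from 0) of Polr1b, Ubtf, Nolc1, Dkc1, Nop10 and Utp20 in every library (points) of the 10 groups (x axis), with open points for cells without Dox and a line at each group mean. Within each line, the cells with Dox lie above those without for all 6 genes, while the kidneys overlap with the MYC tumours for Nop10 and with the tumours for Utp20.

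Whether the change with Dox differed between lines was tested with the line by Dox interaction over the 16 libraries of each pair of lines. The change was larger in VM-3055 than in MYC-2983 for 47 members and smaller for 1 at an adjusted p under 0.05 (17.5% and 28.7% of all genes), and no member passed with a difference over 1 (8.78% of all genes passed). In VIM-3039 against MYC-2983 it was larger for 52 and smaller for 1 (23.9% and 23.6% of all genes). The median difference was 0.54 and 0.65. The single member with the smaller change in both comparisons was Ubtf, with -0.40 and -0.22, while Polr1c and Nop10 were not past the threshold in either, Polr1c with -0.0026 and 0.16 and Nop10 with 0.037 and 0.092. Dkc1 was the one member that passed in size as well (9.06% of all genes did, 4.54% in the direction of a larger change in VIM-3039), with a difference of 1.25 (SE 0.0404, limma adjusted p = 1.31e-15). Both comparisons share the MYC-2983 libraries.

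The change in VIM-3039 was larger than in VM-3055 for 16 members and smaller for 0 at an adjusted p under 0.05 by limma, against 22.8% and 10.5% of all genes, and 21 members had an unadjusted p under 0.05 (42% of all genes). No member passed in size (6.05% of all genes did, 3.7% as larger in VIM-3039). The share of 16 in 55 is near the background, and the median difference of 0.10 was 0.019 under TMM scaling, where 10 members were higher and 3 lower. Dkc1 had the largest difference here too, 0.70 (SE 0.061, adjusted p = 1.08e-08). The other 15 were Polr1a, Polr1b, Ubtf, Nop56, Utp20, Wdr43, Nat10, Ltv1, Bms1, Heatr1, Tbl3, Pwp2, Wdr12, Noc3l and Ddx21.

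The levels of the lines were then set against each other, first with Dox. No member passed in any of the 3 pairs by limma, where 42, 40 and 33 members had an unadjusted p under 0.05 in VM-3055 against MYC-2983, VIM-3039 against MYC-2983 and VIM-3039 against VM-3055 (77.8%, 77.5% and 69.7% of all genes). Of all genes, 6.54%, 5.66% and 9.69% passed higher and 18.1%, 18.3% and 9.45% lower. The medians of the members were -0.15, -0.0075 and 0.077 on the log2 scale. With the threshold on adjusted p alone, 7 were higher and 35 lower in VM-3055 than in MYC-2983 (26.7% and 49.9% of all genes), 16 higher and 24 lower in VIM-3039 than in MYC-2983 (26.4% and 49.7%), and 28 higher and 5 lower in VIM-3039 than in VM-3055 (35.1% and 32.4%). The first 2 splits depended on the scaling, being 20 to 17 and 32 to 15 under TMM, with medians of 0.0046 and 0.13. The extremes were Nob1 in VM-3055 against MYC-2983 (-0.75), Wdr3 in VIM-3039 against MYC-2983 (-0.84) and Gar1 in VIM-3039 against VM-3055 (-0.51).

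The lines without Dox were compared after the data had been seen. Of the 55 members, 7 passed as lower in VM-3055 than in MYC-2983 (16.6% of all genes) and 6 as lower in VIM-3039 than in MYC-2983 (19.3% of all genes), and 53 were lower at an adjusted p under 0.05 in each (43.1% and 50% of all genes). The median differences were -0.63 and -0.68, where the medians over all genes were -0.10 and -0.20. Under TMM scaling 6 and 5 members passed, with member medians of -0.55 and -0.53 and medians over all genes of -0.028 and -0.062. Npm1 and Mybbp1a were in both sets, joined by Rrp12, Nob1, Tsr1, Bop1 and Nle1 for VM-3055 and by Dkc1, Gar1, Wdr3 and Mrto4 for VIM-3039. Mybbp1a had the largest difference in both, -1.42 and -1.54. For 54 members the MYC-2983 mean was above that of both other lines, and for 49 its 4 libraries lay above all 8 of theirs. The share of all genes with these 2 patterns was not counted, so how far the members depart from it is not known. VIM-3039 against VM-3055 gave 0 that passed in size by limma (9.21% of all genes passed higher and 12.5% lower), with 12 higher and 16 lower at an adjusted p under 0.05, shares of the members below those of all genes (28.6% and 37.9%).

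Markers of proliferation moved with these results in the cells. Their summed level (6 genes) was 30910 to 32320 units with Dox and 18960 to 19900 without in MYC-2983, 28740 to 29830 and 13830 to 16270 in VM-3055, and 25010 to 25160 and 10930 to 11660 in VIM-3039. All 6 were higher with Dox at an adjusted p under 0.05 in each line, of which 0, 3 and 5 passed in size by limma. The part of proliferation in the results for the 55 genes was not tested. Most fibroblast markers moved the other way, with 4 of 6, 3 of 4 and 2 of 2 tested genes passing as lower with Dox. In MYC-2983, 1 of the 6 was higher at an adjusted p under 0.05 by limma, with a log2 change of 0.99. The summed level of the fibroblast markers was at most 985 units in any cell library. The 4 renal epithelium markers summed to 11040 to 12570 units with and 16340 to 17310 without Dox in MYC-2983, 5721 to 5844 and 13020 to 13430 in VM-3055, and 5793 to 5943 and 9894 to 10630 in VIM-3039, with 0, 1 and 0 of 4 passing as lower by limma and 3, 2 and 2 lower at an adjusted p under 0.05. At that threshold 1, 0 and 1 of these 4 markers were higher with Dox, and 0 passed as higher. Of the proximal tubule markers that could be tested, 1 of 4, 2 of 3 and 1 of 3 passed as lower with Dox. Slc34a1, Slc5a2 and Slc22a6 of that list were at or under the floor in all 6 groups. Leukocyte markers passed as lower for 1 of 2, 3 of 3 and 0 of 2 tested genes, and Emr1 and Cd3e were at or under the worth of 3 reads in all 6 groups. Of the loop, distal tubule and collecting duct markers 1 of 2, 2 of 2 and 0 of 1 passed as lower, with sums of at most 41.09 units. The part of these markers in the results for the 55 genes was not tested.

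Neighbouring gene lists gave a scale for these changes. Among 74 other ribosome biogenesis factors that could be tested, 4 passed as higher with Dox in MYC-2983, 33 in VM-3055 and 40 in VIM-3039, with medians of 0.59, 0.92 and 1.04 and none lower. Of 8 further RNA polymerase I genes 0, 3 and 2 passed, with medians of 0.62, 0.91 and 0.91. RNA polymerase III genes had medians of 0.40, 0.20 and 0.41, with 1, 3 and 1 of 20 passing, and RNA polymerase II genes had 0.25, 0.30 and 0.35, with 0 of 8 passing by limma in any line and 7, 5 and 8 higher at an adjusted p under 0.05. The 5 subunits shared between polymerases had medians of 0.62, 0.57 and 0.84, with 1, 1 and 2 passing. Of 7 tested host genes of snoRNAs 0, 2 and 4 passed, with medians of 0.47, 0.91 and 1.02.

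Promoter sequence was looked at because the members moved together with Dox. The window ran from 250 bases before to 50 bases after the start of each gene in RefSeq annotation of GRCm38.p6, and 48 of the 55 members had one. The letters CACGTG, the canonical E-box that MYC and MAX bind and which reads the same on both strands, were found in the window of 11 of the 48 members (22.9%), against 8.09% of 27025 genes with a window and 10.7% of 12035 such genes above 0 in at least 4 libraries. The 11 were Rrn3, Utp20, Wdr43, Tsr1, Ltv1, Imp4, Pes1, Nop2, Grwd1, Nle1 and Mybbp1a. Their median log2 change with Dox was 0.73 in MYC-2983, 1.21 in VM-3055 and 1.37 in VIM-3039, where the 37 members without the letters had 0.94, 1.44 and 1.58. Members with the letters thus had no higher median than those without. The match describes only these windows. The 250 bases before the start are shown 5' to 3' along the gene for the 2 members with the largest changes with Dox, Nolc1 and Polr1b, for 3 members that hold the letters before the start, Nop2, Imp4 and Rrn3, and for Ltv1, which had one of the smallest changes. Capitals mark CACGTG, which begins 60 bases before the start in Nop2, 121 in Imp4, and 215 and 48 in Rrn3. Ltv1 holds it only after its start.
Nolc1, chr19:46075597-46075846, plus strand: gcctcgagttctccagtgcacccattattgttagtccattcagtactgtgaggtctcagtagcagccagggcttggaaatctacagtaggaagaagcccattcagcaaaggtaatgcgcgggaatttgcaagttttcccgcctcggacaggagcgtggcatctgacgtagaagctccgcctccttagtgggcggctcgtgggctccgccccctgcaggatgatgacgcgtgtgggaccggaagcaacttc
Polr1b, chr2:129100746-129100995, plus strand: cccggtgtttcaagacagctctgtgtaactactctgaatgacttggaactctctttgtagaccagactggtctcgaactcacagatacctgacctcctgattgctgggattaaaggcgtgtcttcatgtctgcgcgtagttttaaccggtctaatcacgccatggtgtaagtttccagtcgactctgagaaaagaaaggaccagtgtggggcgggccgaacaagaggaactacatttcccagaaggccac
Nop2, chr6:125131633-125131882, plus strand: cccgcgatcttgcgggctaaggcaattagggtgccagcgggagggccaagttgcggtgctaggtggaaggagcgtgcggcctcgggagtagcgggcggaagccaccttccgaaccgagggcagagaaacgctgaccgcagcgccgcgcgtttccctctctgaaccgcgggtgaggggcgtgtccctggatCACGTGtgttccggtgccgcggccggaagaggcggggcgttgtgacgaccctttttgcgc
Imp4, chr1:34439579-34439828, plus strand: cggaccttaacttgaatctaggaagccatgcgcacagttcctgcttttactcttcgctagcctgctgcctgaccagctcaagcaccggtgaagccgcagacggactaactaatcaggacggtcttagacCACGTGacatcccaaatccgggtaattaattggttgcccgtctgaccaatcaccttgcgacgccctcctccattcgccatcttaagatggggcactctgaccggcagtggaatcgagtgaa
Rrn3, chr16:13780449-13780698, plus strand: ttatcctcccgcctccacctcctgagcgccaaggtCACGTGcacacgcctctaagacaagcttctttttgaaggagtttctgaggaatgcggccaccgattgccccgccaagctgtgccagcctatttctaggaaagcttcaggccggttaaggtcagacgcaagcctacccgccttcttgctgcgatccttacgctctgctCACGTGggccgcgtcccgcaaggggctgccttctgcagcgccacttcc
Ltv1, chr10:13193138-13193387, minus strand: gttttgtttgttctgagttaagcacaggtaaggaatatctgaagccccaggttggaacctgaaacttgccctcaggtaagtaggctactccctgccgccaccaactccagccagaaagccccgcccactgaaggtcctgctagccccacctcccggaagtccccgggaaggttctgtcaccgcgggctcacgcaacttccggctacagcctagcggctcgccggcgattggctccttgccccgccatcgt

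The second set of comparisons placed the tumours of each genotype against normal kidney. Of the 55 members 51 passed as higher in MYC tumours, 53 in VM tumours and 53 in VIM tumours, and 0 as lower, against 18.8%, 17.3% and 18.9% of all genes tested as higher and 18.6%, 22.5% and 20.7% as lower (limma, libraries of 1 mouse averaged). The median log2 difference of the members was 1.94, 1.91 and 2.07, or 3.84-fold, 3.75-fold and 4.19-fold, and that of all genes 0.074, -0.051 and 0.0056. Tumour samples and kidneys did not overlap, with the tumours higher, for 53, 54 and 54 members, where 27.4%, 24.3% and 24% of all genes did so. The 3 comparisons share the 5 kidneys and are given side by side. For 53 members every kidney library lay below every tumour library of the 3 genotypes, as was so for 2546 genes of the whole table. Without kidney replicate 5, which stood apart, 51, 52 and 53 passed and the medians were 1.99, 1.89 and 2.07.

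**Figure D5:**
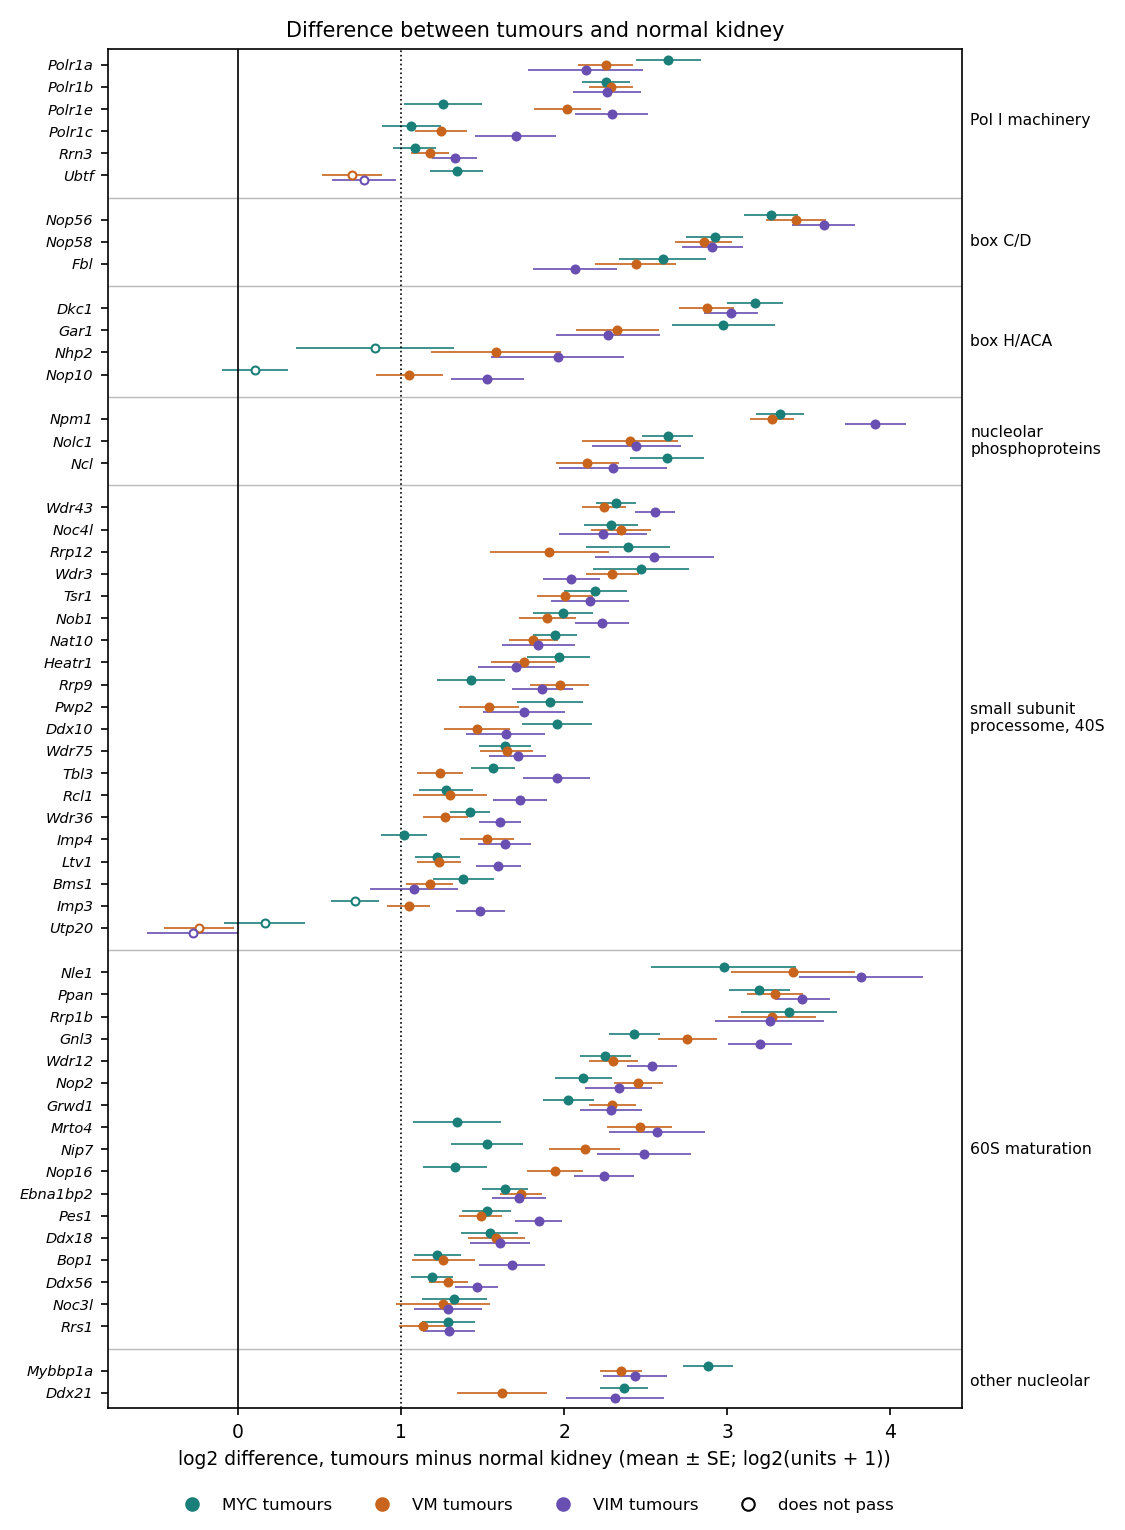
Log2 difference from normal kidney (x axis, with the standard error) of each of the 55 members (y axis, by role) in MYC, VM and VIM tumours. Filled points passed and open points did not, and the dotted line marks a log2 difference of 1. Utp20, and Nop10 in MYC tumours, lie nearest to 0 or below it.

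The box C/D proteins and the phosphoproteins stood highest among the roles. Box C/D genes had medians of 2.92, 2.85 and 2.91 on the log2 scale in MYC, VM and VIM tumours, and phosphoprotein genes 2.63, 2.40 and 2.44, all 6 passing in each genotype. The RNA polymerase I genes had lower medians, 1.30, 1.63 and 1.92. Small subunit genes had 1.78, 1.59 and 1.74, with 18, 19 and 19 of 20 passing, and 60S genes had 1.54, 2.13 and 2.29, with 17 of 17 passing in each.

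Npm1 held 1782, 1454, 1724, 1658 and 1834 units in the kidneys, against 15330.2, 19199 and 17932 in MYC tumours, 18889, 14729.9 and 15642 in VM tumours and 27354, 18808 and 31356 in VIM tumours. The lowest tumour was thus far above the highest kidney, and the log2 difference in VIM tumours of 3.91 (SE 0.187, adjusted p = 1.03e-06) was the largest of any member there. Nop56 held 289, 261, 284, 264 and 320.1 units in the kidneys against 2347, 4301 and 2371 in MYC tumours, 2373, 2845 and 4143 in VM tumours and 2516, 3578 and 4442 in VIM tumours. Its differences were 3.27, 3.42 and 3.59, and that in VM tumours was the largest of any member there. For Rrp1b the kidneys held 106, 145, 118, 182 and 211 units and the MYC tumours 1359, 2052 and 1496, and its difference of 3.38 (SE 0.295, adjusted p = 6.64e-05) was the largest in that genotype. Of these 3 genes, Nop56 overlaps Idh3b on the other strand.

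Further members with large differences were Nle1 with 2.98, 3.40 and 3.82 in MYC, VM and VIM tumours, Ppan with 3.20, 3.29 and 3.46, and Dkc1 with 3.17, 2.87 and 3.02. Polr1a and Polr1b differed by 2.64 and 2.26 in MYC tumours, 2.25 and 2.29 in VM tumours and 2.13 and 2.26 in VIM tumours. Nolc1, with 441, 526, 538, 560.3 and 564 units in the kidneys and 1462, 3986 and 3658 in VM tumours, differed by 2.63, 2.40 and 2.44. Its VM tumours were spread widely, with replicate 1 the lowest.

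A few members departed from the rest. Utp20, at chr10:88209352-88289559 and with the longest median transcript of the set (8831 nt), held 1413, 1004, 1803, 1559 and 1026 units in the kidneys against 1333, 1915 and 1431 in MYC tumours, 940.1, 1200.0 and 1256 in VM tumours and 911, 1711 and 839 in VIM tumours. The ranges overlapped in each case. Its differences were 0.16 (SE 0.25, adjusted p = 0.611), -0.24 (SE 0.215, adjusted p = 0.372) and -0.28 (SE 0.281, adjusted p = 0.432), and with the kidneys labelled B6 alone the value in MYC tumours was -0.10. With 1 library left out the values ranged from 0.059 to 0.32 in MYC tumours, from -0.34 to -0.11 in VM tumours and from -0.60 to -0.086 in VIM tumours. No difference was detected by limma for this gene between any tumour group and kidney, although it passed with Dox in VM-3055 and VIM-3039.

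The H/ACA genes Nop10 and Nhp2 and the U3 partner gene Imp3 did not pass in MYC tumours. Nop10 held 2332, 1676, 1888, 1624 and 1384 units in the kidneys, 2083, 1455 and 2007 in MYC tumours, 3439, 2908 and 4792 in VM tumours and 5712, 3662 and 6208 in VIM tumours. The MYC tumours lay within the range of the kidneys and the others above it. The log2 differences were 0.11 (SE 0.203, adjusted p = 0.693), 1.05 (SE 0.204, adjusted p = 0.00168) and 1.53 (SE 0.221, adjusted p = 0.000323). In MYC tumours the sign turned to -0.15 with the kidneys labelled B6, to -0.037 without MYC tumour replicate 1 and to -0.010 without replicate 3. In VM tumours Nop10 no longer passed without VM tumour replicate 3 (0.85), without kidney replicate 5 (0.96) or with the B6 kidneys (0.79).

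Nhp2, at chr11:51433237-51437216 and overlapping Rmnd5b on the other strand, held 1931, 1552, 1807, 1575 and 495 units in the kidneys, with replicate 5 far below the others. It held 2451, 2323 and 2336 in MYC, 4318, 3340.2 and 4403 in VM and 5928, 4123 and 5722 in VIM tumours, all above the highest kidney. The differences were 0.84 (SE 0.485, adjusted p = 0.18), 1.58 (SE 0.399, adjusted p = 0.00727) and 1.96 (SE 0.408, adjusted p = 0.00277). Without kidney replicate 5 the difference of Nhp2 in MYC tumours was 0.48. For Imp3 the differences were 0.72, 1.05 and 1.49, and the value in VM tumours was 0.996 without VM tumour replicate 3 and 0.88 with the B6 kidneys, both short of passing. Ubtf passed in MYC tumours with 1.34 (SE 0.163, adjusted p = 0.000315) and not in VM or VIM tumours, where it differed by 0.70 (SE 0.182, adjusted p = 0.00868) and 0.77 (SE 0.196, adjusted p = 0.00828). Bms1 passed in all 3 genotypes with 1.38, 1.18 and 1.08. Without VIM tumour replicate 2 its value in VIM tumours was 0.74, short of passing. With the B6 kidneys alone (replicates 1 and 3) that value was 1.18, large enough, but the adjusted p was not under the threshold.

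Other gene lists moved in the same comparison. All 6 proliferation markers passed as higher in each genotype, with a summed level of 214.6 to 355 units in the kidneys and 6256 to 20440 in the tumours. All 6 markers of the proximal tubule and all 6 of the loop, distal tubule and collecting duct passed as lower in each, the proximal ones with sums of 197800 to 232400 units in the kidneys and 1773 to 10510 in the tumours. The renal epithelium markers had 1 of 4 passing as higher and 2, 2 and 3 as lower. Of the fibroblast markers 1, 0 and 0 of 6 passed as higher and 1, 3 and 1 as lower. Leukocyte markers had 3, 2 and 3 of 6 passing as higher and 0, 2 and 2 as lower. Endothelial markers summed to 3253 to 5579 units in the kidneys and 192.1 to 1949 in the tumours, with 5, 4 and 5 of 5 passing as lower. The part of cell composition and of proliferation in the differences of the 55 genes was not tested. Among the 74 other biogenesis factors 45, 48 and 49 passed as higher and 0 as lower, with medians of 1.23, 1.25 and 1.28. Further RNA polymerase I genes had medians of 0.95, 1.18 and 1.29, with 4, 5 and 6 of 8 passing as higher. RNA polymerase III genes had medians of 0.68, 0.49 and 0.46, with 6, 2 and 4 of 20 passing, and RNA polymerase II genes 0.069, 0.35 and 0.25, with 0, 1 and 1 of 8. All 7 host genes of snoRNAs passed in each genotype, with medians of 2.20, 2.57 and 3.10.

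Tumours of 1 genotype differed from each other more than the libraries of a cell line did. The median coefficient of variation of the members was 15.3% in MYC, 15.6% in VM and 24.8% in VIM tumours and 11.9% in the kidneys, against 2.57% to 6.71% in the 6 groups of cell libraries. MYC tumour replicate 2 was the highest of its group for 42 of 55 members, VM tumour replicate 1 the lowest of its group for 36, VIM tumour replicate 2 the highest for 34 and VIM tumour replicate 3 the lowest for 29. The widest spread was that of the processome gene Wdr3 in MYC tumours, with 1286, 6931 and 1309 units. Replicates 2 and 3 there came from the same mouse, and Wdr3 overlaps Spag17 and Gdap2 on the other strand.

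Transcript length moved with this spread in part of the tumour libraries. The deviation of a library from its group mean had a Spearman correlation with transcript length across the 55 members of 0.359 for MYC tumour replicate 2, 0.492 for VM tumour replicate 2 and 0.534 for VIM tumour replicate 2, and of -0.398 for MYC tumour replicate 1 and -0.485 for VIM tumour replicate 3. Across all genes these values were 0.276, 0.266, 0.447, -0.213 and -0.328. In the remaining tumours the correlation across the members was -0.116 for MYC replicate 3, -0.228 and -0.16 for VM replicates 1 and 3, and -0.00851 for VIM replicate 1. In the kidneys it ran from -0.384 to 0.223. The genes of 1 library share its RNA and its depth, so these are descriptions. The part of transcript length in the differences between tissue samples was not tested.

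Between tumour genotypes no member passed by limma when the 2 groups of a pair were fitted alone. In VM against MYC, VIM against MYC and VIM against VM tumours 6, 9 and 1 members had an unadjusted p under 0.05 (13.1%, 14.5% and 11.4% of all genes), and of all genes 0%, 0.00616% and 0.249% passed in either direction. In a voom fit on recovered reads 0 members passed in each. With all tissue groups in 1 fit, 2 members passed as higher in VIM than in MYC tumours (2.11% of all genes passed as higher and 1.79% as lower), Nop10 with 1.42 (limma adjusted p = 0.0212) and Polr1e with 1.04 (limma adjusted p = 0.0403). Medians of the members were -0.035, 0.19 and 0.16, and single libraries set their size. The first turned to 0.10 without VM tumour replicate 1 and to 0.029 without MYC tumour replicate 2, and was -0.12, -0.11 and -0.075 without MYC tumour replicates 1 and 3 and VM tumour replicate 3. The second was 0.0024 without VIM tumour replicate 2, 0.022 without MYC tumour replicate 1 and 0.096 without MYC tumour replicate 3. The third was 0.077 without VIM tumour replicate 2 and 0.098 without VM tumour replicate 1. Nop10 had the largest difference in VIM against MYC tumours, 1.42 (SE 0.321, adjusted p = 0.227), and Mrto4, a 60S assembly gene, in VM against MYC tumours, 1.12 (SE 0.295, adjusted p = 0.243). Transcript length moved with these differences too, with a Spearman correlation of -0.517 and -0.458 between transcript length and the difference of VM and of VIM from MYC tumours across the 55 members, and of -0.123 for VIM from VM. With 3 tumours a genotype, and 2 animals for MYC, a 2-fold difference may be missed. How often was not simulated for pairs of tumour genotypes. Simulated data for MYC tumours against kidney, with 200 genes changed, had 14% of genes changed 2-fold found at an adjusted p under 0.05 (limma). Of those changed 4-fold, 58% were found. These rates belong to that setting and do not carry over to pairs of tumour groups.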

How the data were processed

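RNA was measured in 38 libraries (24 of cells, 9 of tumours, 5 of kidney) made with a stranded mRNA kit. The values the authors deposited are a signal per gene: MapSplice alignments to mm9 were turned into RSEM estimates, each library then being scaled to an upper quartile of 1000. The submitters' processing notes also name Picard 1.64 and SAMtools. These values are not counts, so no count test was the main test. The labels of VM and VIM cells give the genotype alone, and the line numbers are those of the study's methods.

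The 55 members and all gene lists were chosen with earlier results of these data known. Each of 15 comparisons was fitted on log2(value + 1) with limma 3.58.1 in R 4.3.3 (eBayes with trend) over the groups compared, for genes above 0 in at least 4 cell libraries or 2 tissue samples, with the 2 tumour libraries of mouse 2983 averaged. P-values are two-sided, and adjusted p is that of Benjamini and Hochberg over all genes tested. A gene passed at an adjusted p under 0.05 and an absolute log2 difference over 1. Fold changes on this scale understate changes of low genes. Members were described by a fixed rule: the 2 of each role with the highest mean over all libraries, the 3 highest and 3 lowest differences of each comparison with Dox or with kidney, and any that passed an interaction or moved against the median with an adjusted p under 0.05. Members named as exceptions or as parts of counts were chosen after their values were seen.

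Reads were recovered from the smallest step of each library (94.1% to 95.9% of values under 20 reads whole within 0.02), and reads under 3 were taken as the floor. Alternatives were pseudocounts of 0.1 and 10, no filter or a mean of at least 10 units, TMM (trims of 30% and 5%) and quantile scaling, a single fit of all groups, voom on recovered reads, a replicate block, subsets of kidneys, the libraries of mouse 2983 kept separate, leaving out each library, adjusted p alone and, added later, the lines without Dox, also with TMM. Scripts were tested on simulated data: for VM-3055, 100% of genes changed 4-fold passed, of 14474 genes. Of those changed 2-fold, 96% had an adjusted p under 0.05 and 50% passed. No pairing of the samples by replicate number was seen, which does not exclude it. Positions come from the NCBIM37 annotation and promoters from RefSeq (GRCm38.p6), which had no entry for Fbl, Npm1, Rrp12, Wdr36, Tbl3, Bop1 and Rrs1. Of the 55 members 16 overlap a gene on the other strand and 0 on the same strand.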

Additional observations from a re-analysis of the deposited data

Results flagged for a closer look

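The change with Dox differed between lines, by the line by Dox interaction at an adjusted p under 0.05 (limma), for 48 members between VM-3055 and MYC-2983, for 53 between VIM-3039 and MYC-2983 and for 16 between VIM-3039 and VM-3055, against 46.2%, 47.6% and 33.3% of all genes. The last, 16 of 55, is no larger a share than that of all genes. Dkc1, the dyskerin gene, passed in size in VIM-3039 against MYC-2983 with a difference of 1.25 on the log2 scale.

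One library lay far from the others of its group, by Dixon's test, in 10 of 196 groups of values of the named members, and chance gives about 1 in 20. With Dox in MYC-2983, Gnl3 was low in replicate 3 (2936 units against 3026 to 3032) and Ddx21 high in replicate 4 (10178 against 9593 to 9666). In VM-3055, Noc3l was high in Dox replicate 3 (1047 against 904 to 918), Ddx56 in no-Dox replicate 4 (955 against 829 to 849) and Mybbp1a in no-Dox replicate 2 (3859 against 3593 to 3623). In VIM-3039 with Dox, Wdr43 was low in replicate 4 (4383 against 4492 to 4513), Ddx56 low in replicate 3 (1711 against 1818 to 1825) and Ppan high in replicate 1 (2026 against 1761 to 1791), and without Dox Ubtf was high in replicate 4 (2218 against 2033 to 2056). Nhp2 was low in kidney replicate 5 (495 against 1552 to 1931).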

How the results depend on the processing

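Of 292 counts of passing members recomputed under an alternative, 280 stayed within 1.5 times the count given in the report, and 2835 of 2859 values of named members kept their call. With adjusted p alone the counts were 55 in MYC-2983 with Dox, 42, 40 and 33 between the lines with Dox and 48, 53 and 16 for the interactions. Without Dox in place of with Dox, 7 and 6 members passed between VM-3055 or VIM-3039 and MYC-2983, and 6 and 5 with TMM scaling as well. With all tissue groups in 1 fit, 2 members (Nop10 and Polr1e) passed as higher in VIM than in MYC tumours, against 2.11% of all genes. The member medians between lines with Dox turned to 0.0046 (VM-3055 against MYC-2983) and 0.13 (VIM-3039 against MYC-2983) under TMM, and the latter to 0.075 under quantile scaling. The median of genes with at least 50 units was itself -0.14 and -0.12 there, and -0.17 for VM-3055 with Dox, against 0.014, 0.021 and 0.037 under TMM. Under TMM 26, 51 and 51 members passed with Dox in MYC-2983, VM-3055 and VIM-3039. The share of lower calls among all passing genes moved with scaling (as deposited, TMM, quantile): 77%, 70.7% and 58% in MYC-2983, 76.2%, 61.7% and 51.5% in VM-3055, 68.4%, 59.3% and 50.7% in VIM-3039, 73.4%, 67.4% and 47.7% for VM-3055 and 76.4%, 71.1% and 51.5% for VIM-3039 against MYC-2983 with Dox, and 62.9%, 56.1% and 51.7% and 38.8%, 44.2% and 51.8% for the interactions of VM-3055 with MYC-2983 and VIM-3039 with VM-3055. Against kidney, Nop10 in MYC tumours was -0.15 with B6 kidneys, and Utp20 was -0.10 with B6 kidneys; apart from the samples left out, the cause was not tested. With 1 library left out at a time, Nop10 in MYC tumours ranged from -0.037 to 0.22. In the same runs 18 to 20, 44 to 46 and 48 to 49 members passed with Dox, 50 to 51, 51 to 53 and 52 to 53 in tumours, and 1 for the interaction of VIM-3039 with MYC-2983.

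Labels of VM-3055 and VIM-3039 share replicate numbers. Correlations of same-numbered deviations averaged -0.184 between VM-3055 with and without Dox, 0.0154 for VIM-3039 and 0.058 between the lines with Dox. No pairing by number was seen, but 4 libraries a group are too few to exclude it. With the replicate number as a block 45 members passed in VM-3055, 48 in VIM-3039, 0 between these lines with Dox and 0 for their interaction, as without the block. No member lay at or under the floor of 3 reads in any library, the shallowest of which held 8.22 M estimated reads.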

Other observations

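The size of the change with Dox was ordered alike across the lines. Over the 55 members Pearson's r of the log2 changes was 0.916 between VM-3055 and VIM-3039, 0.782 between MYC-2983 and VM-3055 and 0.745 between MYC-2983 and VIM-3039. These values are descriptions across genes, which are not independent replicates and share the scaling of their libraries, and no cell library is shared between the lines. Between the change with Dox in a line and the difference of the tumours of its genotype from kidney r was 0.36 for MYC, 0.61 for VM and 0.561 for VIM.

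Annotated snoRNA genes lie inside 8 of the 55 members, namely Nop56 and Nop58 with 4 each, Ncl, Wdr43 and Gnl3 with 3 each, Tsr1 and Ppan with 2 each, and Dkc1 with 1.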
